A study of Mus musculus with 12 samples.

Results

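The genes described here are 40 genes of the G1/S transition and of DNA replication, chosen by name from the 40840 genes in the raw counts of the 12 libraries. They were followed in donor OTII cells, CD4+ T cells whose transgenic T-cell receptor recognizes a peptide of ovalbumin (OVA). The OTII cells were transferred into congenic WT recipients or into Il6-/- recipients (B6.129S2-IL-6tm1Kopf/J), which lack a functional Il6 gene in all cells of the host. All recipients were sensitized i.n. with house dust mite extract (HDM), LPS and OVA, and the OTII cells were sorted from the mediastinal lymph nodes on Day 3 or Day 5. The 4 groups, WT Day 3, Il6-/- Day 3, WT Day 5 and Il6-/- Day 5, held 3 libraries each. The donor cells carried an intact Il6 gene in every group, so their reads do not check the recipient genotype. The sample labels name blood as the tissue and leave out LPS, and the study's own account was followed here. The sources do not state whether the replicates came from separate mice or from pools, so the p-values measure the spread between these samples.

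A cell entering S phase first licenses its replication origins, when CDC6 helps to load the MCM2-7 helicase onto DNA during G1. CDC45 and the GINS complex then turn the loaded helicase on, polymerase alpha-primase starts each new strand, and PCNA, loaded by clamp loaders of the RFC type, holds the later polymerases on the template. Many of these genes share control by E2F factors, which the RB family holds back until G1 cyclin-dependent kinases act, and their mRNA is highest from late G1 to S phase. CD4+ T cells leave quiescence after antigen recognition, divide rapidly in the draining lymph node and then slow down.

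Between 16125947 and 26111657 reads per library fell on genes, and all 40 genes passed the filter on low counts, together with 13570 genes in all. Levels are given in CPM, reads per 1e+06 reads on genes after TMM scaling of the library sizes, and differences as log2 fold changes (log2FC) with their standard error (SE). Tests were edgeR's quasi-likelihood F tests, with p adjusted over all genes tested by the Benjamini-Hochberg method (FDR), and a gene was called at an FDR under 0.05. The SE was derived from the test, as the absolute log2FC divided by the square root of F. It is unreliable where the log2FC is close to 0. T-cell markers summed to 5613 to 11381 CPM per library, and markers of B cells and plasma cells to 5.19 to 10.8 CPM, with 2 to 6 of the 8 genes at 0. Myeloid and dendritic markers summed to 7.93 to 46.3 CPM and lung epithelial markers to 0.475 to 20.7 CPM. Higher sums were those of CD8 T and NK markers, at 62.2 to 112 CPM, and of germinal centre B-cell markers, at 30.9 to 118 CPM. Libraries of Day 5 had a smaller share of reads on genes (52.5% to 56.7%) than those of Day 3 (60.2% to 62.2%), and the part of this in the results was not tested.

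The replication genes were strongly expressed on Day 3 and far lower on Day 5. Their summed level in WT recipients was 11830.2, 10803 and 11096 CPM on Day 3 and 1655, 2290 and 2149 CPM on Day 5. In Il6-/- recipients it was 12620.5, 12326 and 12539 CPM on Day 3 and 2096, 3771 and 2818 CPM on Day 5. No library of one day reached the range of the other day, and the mean sum was 5.53-fold higher on Day 3 than on Day 5 in WT and 4.32-fold higher in Il6-/- recipients. The Day 3 replicates lay within 1.10-fold (WT) and 1.02-fold (Il6-/-) of each other. The Day 5 replicates spread over 1.38-fold in WT and 1.80-fold in Il6-/- recipients, with WT replicate 1 lowest and Il6-/- replicate 2 highest. In these bulk libraries, fewer cells in S phase and less RNA per cell cannot be told apart.

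**Figure D1:**
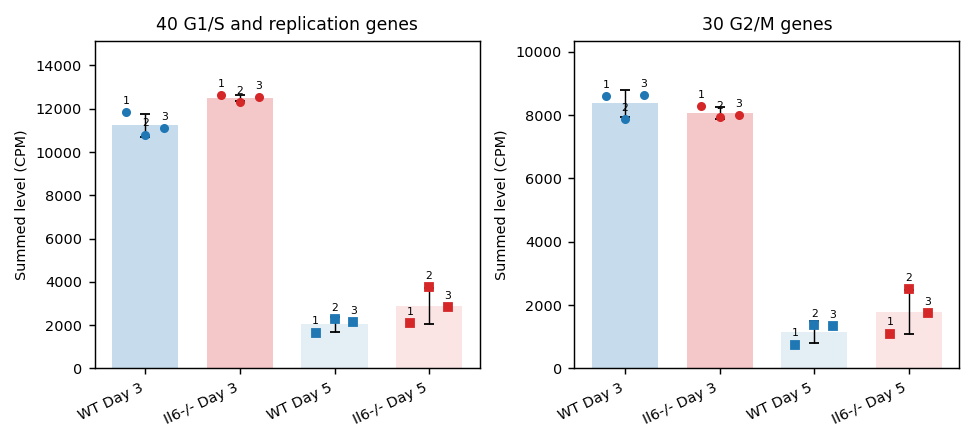
Summed level in CPM of the 40 G1/S and replication genes (left) and of 30 G2/M genes (right) in the 4 groups. Points are libraries with their replicate number, bars are means of 3 libraries, and error bars are the SD. Both sums were lower in every Day 5 library than in every Day 3 library, and replicate 2 of the Il6-/- Day 5 group was the highest of the 6 libraries of Day 5.

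Levels of different genes were compared per kilobase of annotated exon. This length counts all annotated exons of a gene and may exceed that of the transcripts present. The SD is that of replicates and does not cover error in length. In WT recipients on Day 3, Rrm2, the small subunit of ribonucleotide reductase, had the highest level at 327 ± 13.5 CPM per kb (SD, n = 3). Pcna followed at 214 ± 6.5 CPM per kb, then Mcm6 at 168 ± 8.5 and Mcm5 at 123 ± 7.3 CPM per kb, and none of these neighbours overlapped within 1 SD. The order depends on the lengths, since in CPM alone Mcm6 lay above Pcna in each of these libraries. Below them, Mcm4, Uhrf1, Mcm7, Fen1 and Mcm3 lay between 97.3 and 111 CPM per kb and within about 1 SD of their neighbours. The lowest were Ccne2 at 2.94 ± 0.26 and Wdr76 at 3.45 ± 0.29 CPM per kb. On Day 5 in WT recipients the order had changed at the top, with Pcna at 59.1 ± 4.9, Mcm6 at 39.2 ± 7.0 and Rrm2 at 26.2 ± 8.5 CPM per kb, and Exo1 had become the lowest at 0.257 ± 0.10 CPM per kb.

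**Figure D2:**
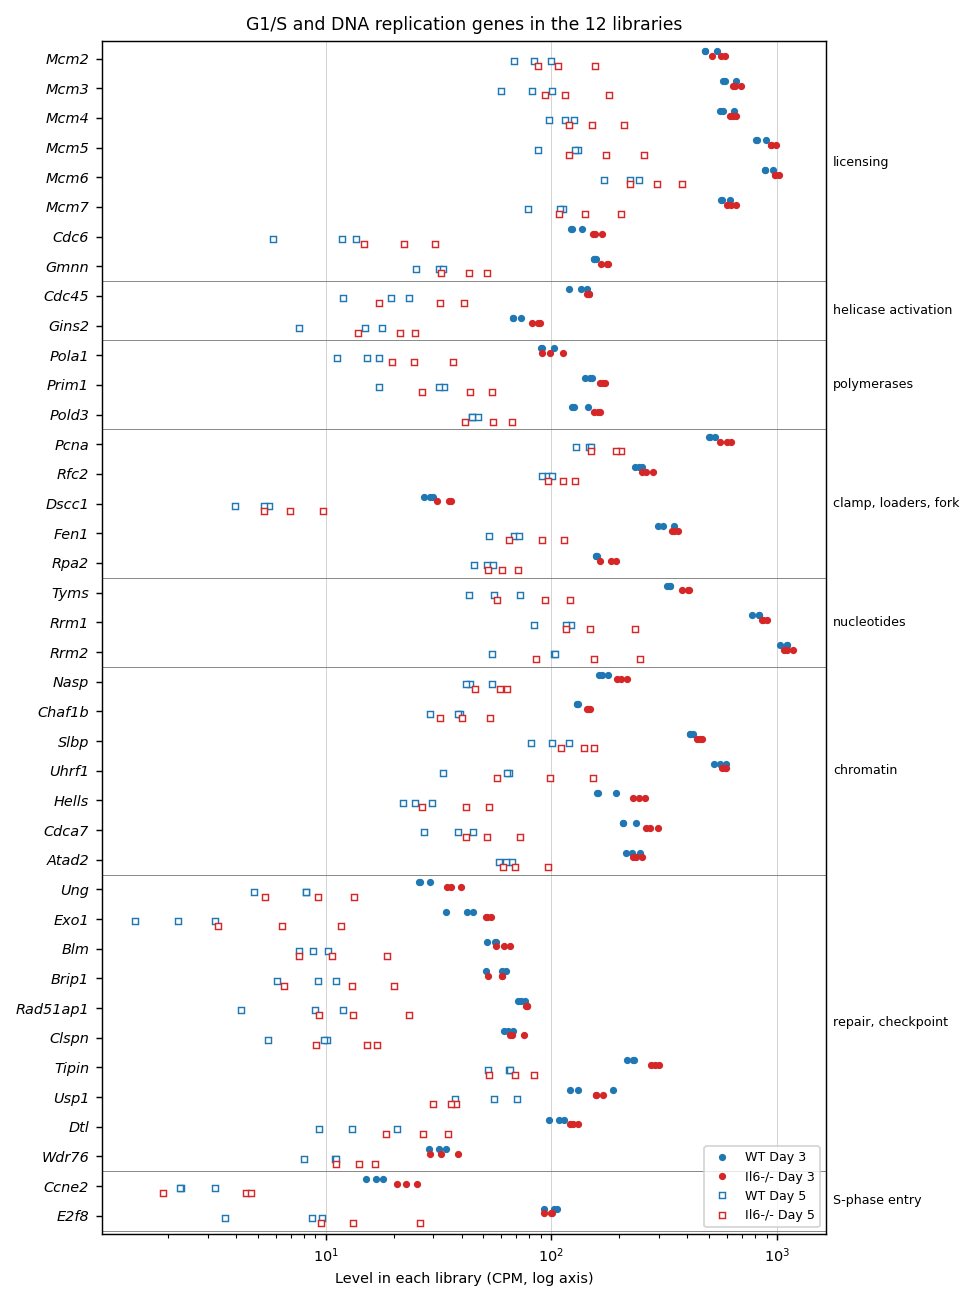
Level of each of the 40 genes in each of the 12 libraries, in CPM on a log axis, grouped by role. Filled circles are Day 3, open squares Day 5, blue WT and red Il6-/- recipients. For all 40 genes the 3 libraries of Day 5 lay below the 3 libraries of Day 3 in both genotypes, and the Day 5 squares are spread more widely than the Day 3 circles.

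The first question was how the genes changed between Day 3 and Day 5 in each host. All 40 genes were lower on Day 5 in WT recipients, where 27.1% of all genes tested were called lower, and all 40 were lower by at least 2-fold, against 9.39% of all genes. In Il6-/- recipients all 40 were again lower, against 30.1% of all genes, and all 40 by at least 2-fold, against 11.4%. The median log2FC of the 40 genes was −2.54 in WT and −2.13 in Il6-/- recipients, and that of all genes was 0.09 in both. The largest FDR among the 40 was 1.4e-05 in WT and 8.7e-06 in Il6-/- recipients, and every one of the 40 genes was called in each alternative fit that gave the comparison. Marker lists also moved between the days. All 7 T-cell markers were called higher on Day 5 in both hosts, and their mean sum went from 6652 to 11285.5 CPM in WT and from 5651 to 10197 CPM in Il6-/- recipients. Of the 6 naive T-cell markers, 4 were called higher on Day 5 in each host. Lung epithelial markers had a mean sum of 0.961 CPM on Day 3 and 10.6 CPM on Day 5 in WT recipients, and of 4.43 and 7.23 CPM in Il6-/- recipients. The libraries behind these means spread widely, with 0.475, 11.3 and 1.52 CPM in Il6-/- Day 3 and 20.7, 2.55 and 8.56 CPM in WT Day 5. The mean sum of myeloid and dendritic markers went from 14.97 to 29.5 CPM in WT and from 13.7 to 24.7 CPM in Il6-/- recipients. The 2 tested germinal centre B-cell markers were called higher on Day 5 in each host. The mean sum of that list went from 49.9 to 104 CPM in WT and from 34.8 to 83.9 CPM in Il6-/- recipients. That of CD8 T and NK markers went from 68.4 to 97.7 CPM in WT and from 96.7 to 91.7 CPM in Il6-/- recipients. Genes of this list moved in opposite directions. Of the 3 tested, 1 was called higher and 1 lower on Day 5 in WT recipients, and 1 was called lower in Il6-/- recipients. The part of these markers in the fall of the 40 genes was not tested.

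Among the origin licensing genes, the 6 subunits of the MCM2-7 helicase moved within a narrow range, from a log2FC of −2.10 (Mcm6) to −2.91 (Mcm3) in WT and from −1.73 (Mcm6) to −2.38 (Mcm5) in Il6-/- recipients. Mcm6 stood at 964, 888 and 881 CPM in WT recipients on Day 3 and at 171, 244 and 223 CPM on Day 5. Cdc6, the loader of the helicase, fell further than any MCM subunit: 137, 122 and 124 CPM on Day 3 became 5.85, 13.7 and 11.8 CPM on Day 5 in WT recipients, a log2FC of −3.61 (SE 0.25, FDR = 4.1e-08). In Il6-/- recipients Cdc6 went from 156, 153 and 167 to 14.8, 30.5 and 22.2 CPM (log2FC −2.82, SE 0.24, FDR = 1.3e-07). Its Day 5 libraries lay clearly below those of Day 3 in both hosts. Gmnn, the inhibitor that prevents a second licensing in the same cycle, had a log2FC of −2.38 in WT and −2.03 in Il6-/- recipients.

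Of the genes that act at the fork, Cdc45 and Gins2, needed to activate the helicase, had a log2FC of −2.86 and −2.36 in WT recipients and of −2.28 and −2.11 in Il6-/- recipients. Pola1, the catalytic subunit of polymerase alpha, fell from 103, 90.0 and 90.8 CPM to 11.2, 17.2 and 15.2 CPM in WT recipients, a log2FC of −2.70 (SE 0.20). Prim1, the primase subunit, had a log2FC of −2.41, whereas Pold3, an accessory subunit of polymerase delta, had one of −1.54 (SE 0.13). The clamp Pcna itself fell less than most members, from 506, 502 and 531 CPM to 128, 147 and 150 CPM in WT recipients (log2FC −1.85, SE 0.10). Rfc2, a clamp loader subunit, had the smallest change of all 40 genes in both hosts, with a log2FC of −1.35 (SE 0.09) in WT and −1.24 (SE 0.09) in Il6-/- recipients. Its levels were 254, 235 and 246 CPM on Day 3 and 91.4, 96.6 and 100.4 CPM on Day 5 in WT recipients, a 2.55-fold drop with little spread. Fen1, the flap endonuclease of Okazaki fragments, Dscc1, a subunit of an alternative clamp loader, and Rpa2, a subunit of the single-strand binding complex, had a log2FC of −2.31, −2.53 and −1.64 in WT recipients.

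The enzymes of nucleotide supply fell together. Rrm2 went from 1110, 1033 and 1111 CPM on Day 3 to 54.5, 102 and 104 CPM on Day 5 in WT recipients (log2FC −3.64, SE 0.30, FDR = 1.5e-07). In Il6-/- recipients it went from 1110, 1073 and 1178 CPM to 85.7, 246 and 154 CPM (log2FC −2.79, SE 0.29, FDR = 9.9e-07). The Il6-/- libraries of Day 5 spread widely, yet none came near the Day 3 range. Rrm1, the large subunit, had a log2FC of −2.92 in WT and −2.40 in Il6-/- recipients, and Tyms, thymidylate synthase, of −2.54 and −2.13. Tyms has a counted pseudogene, Tyms-ps, with which it may share reads, so its counts are uncertain.

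Among the chromatin genes, Uhrf1, which guides maintenance DNA methylation to new strands, had the largest change in WT recipients. Its levels in WT recipients were 596, 529 and 561 CPM on Day 3 and 33.1, 65.2 and 63.6 CPM on Day 5 (log2FC −3.38, SE 0.29). Hells, a chromatin remodeler that acts with Cdca7, had a log2FC of −2.75 in WT and −2.59 in Il6-/- recipients, and Cdca7 had −2.56 and −2.33. The histone handling genes fell less: Nasp, a histone chaperone, had a log2FC of −1.86 in WT and −1.87 in Il6-/- recipients, Chaf1b, of the chromatin assembly factor CAF-1, −1.87 and −1.80, and Slbp, which binds histone mRNA, −2.05 and −1.76. Atad2, a bromodomain ATPase, had −1.87 and −1.66.

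The repair and checkpoint genes spanned the widest range of changes. Exo1, an exonuclease of mismatch repair and end resection, had the largest change of all 40 genes in both hosts. It went from 44.9, 34.1 and 42.3 CPM to 1.43, 3.22 and 2.21 CPM in WT recipients, a 17.7-fold drop (log2FC −4.14, SE 0.34, FDR = 1.3e-07). In Il6-/- recipients it went from 51.5, 52.1 and 54.0 CPM to 3.33, 11.7 and 6.40 CPM (log2FC −2.89, SE 0.30, FDR = 1.0e-06). Clspn, an adaptor of the replication checkpoint, and Dtl, which directs replication-coupled protein destruction, had a log2FC of −2.91 and −2.90 in WT recipients, and Rad51ap1 had −3.14. Blm and Brip1, both DNA helicases, had −2.63 and −2.72, and Tipin, a fork protection protein, and Ung, a uracil glycosylase, had −1.90 and −1.94. Usp1, a deubiquitinase of PCNA and FANCD2, had the second smallest change in WT recipients at −1.43 (SE 0.19), but −2.23 (SE 0.20) in Il6-/- recipients, and Wdr76 had −1.65 and −1.26.

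The S-phase entry regulators also fell. E2f8, an atypical E2F that represses E2F targets, went from 103, 93.1 and 106 CPM to 3.56, 8.73 and 9.59 CPM in WT recipients (log2FC −3.78, SE 0.33) and had a log2FC of −2.58 (SE 0.30) in Il6-/- recipients. Ccne2, cyclin E2, stood at 17.9, 15.03 and 16.7 CPM on Day 3 and at 2.29, 3.22 and 2.26 CPM on Day 5 in WT recipients, with a log2FC of −2.68 in WT and −2.64 in Il6-/- recipients.

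**Figure D3:**
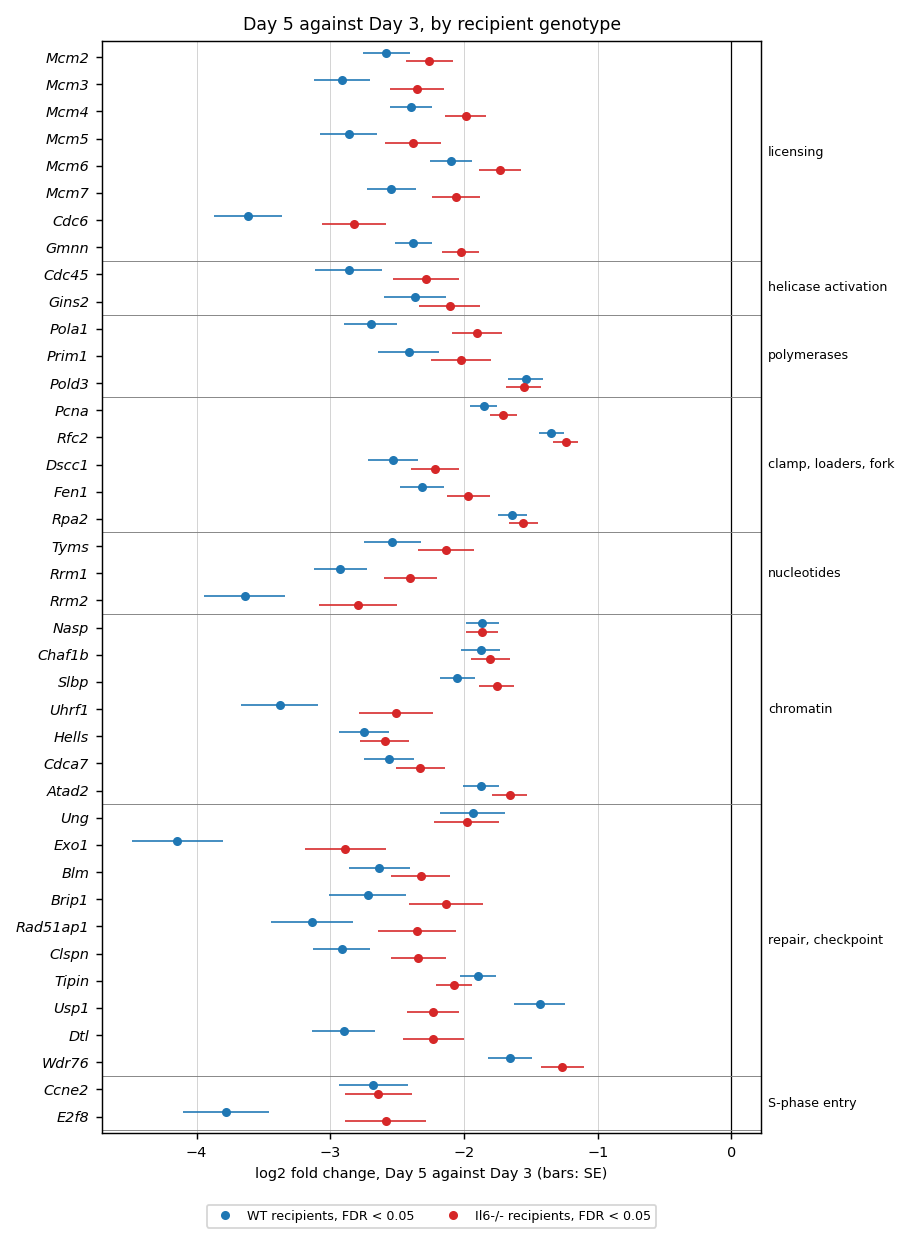
Change of each of the 40 genes from Day 3 to Day 5 as log2 fold change, in WT (blue) and Il6-/- (red) recipients, with bars for the SE. All points lie below −1. Exo1 is lowest and Rfc2 highest in both hosts, and 35 of the 40 genes have the less negative value in Il6-/- recipients.

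Because the genes moved together, their promoters were searched for short motifs. The RefSeq promoter table (250 bases before to 50 after a start) held 34 promoters of 30 of the 40 genes, and each of the 34 was found once on GRCm39, on the strand of its gene. At least 1 of the 4 E2F-like octamers TTTCCCGC, TTTCGCGC, TTTGCCGC and TTTGGCGC, on either strand, stood in 12 of the 34 promoters (35.3%), against 2.265% of all 32851 promoters of the table. By gene, 12 of 30 (40%, exact 95% interval 22.7% to 59.4%) held one, against 4.69% of the 10397 tested genes with a promoter in the table and 4.0% of 25 G2/M genes. Of 42 other replication genes with a promoter in the table, 26.2% held one (interval 13.9% to 42.0%). The hexamer TTTGAA, a core of the CHR element of G2/M genes, stood in 20.0% of the 30 genes, 76.0% of the G2/M genes and 15.01% of the tested genes. CCAAT stood in 70.0%, 80.0% and 43.0%. By promoter, TTTGAA stood in 17.9% and CCAAT in 37.4% of all promoters of the table. In the 250 bases before the start alone, TTTGAA stood in 32.0% of the G2/M genes (interval 14.95% to 53.5%). That interval overlapped the one of the 30 genes, 20.0% (7.71% to 38.6%), so this contrast depended on the 50 bases after the start. The 12 genes with an octamer had a median log2FC of −2.80 from Day 3 to Day 5 in WT recipients and the 18 without one −2.48, with overlapping ranges (−3.61 to −1.54 and −3.78 to −1.64). A match of letters describes the sequence and does not show a bound factor.

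The following stretches before the RefSeq start sites show the octamer (capitals) where it was found in licensing genes, in chromatin genes and in the 3 genes with an octamer that were higher in Il6-/- recipients on Day 5. Mcm3, a licensing gene, is left out because its 2 octamers lay after the start. The RefSeq start lay 1038 bases from the annotated gene start in Uhrf1, 539 in Mcm7 and 470 in Cdc6. By the GENCODE vM39 annotation, all stretches but those of Mcm5 and Pola1 lay at least partly inside the gene. Positions are on GRCm39, and each sequence is that of the gene's strand.
Mcm5, chr8:75835973-75836002, plus strand: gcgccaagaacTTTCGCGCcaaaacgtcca
Mcm6, chr1:128287471-128287500, minus strand: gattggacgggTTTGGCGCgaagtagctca
Mcm7, chr5:138170292-138170321, minus strand: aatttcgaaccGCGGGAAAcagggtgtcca
Cdc6, chr11:98798828-98798857, plus strand: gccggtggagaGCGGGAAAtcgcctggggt
Pola1, chrX:92675881-92675910, minus strand: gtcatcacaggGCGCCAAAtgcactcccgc
Dtl, chr1:191307646-191307675, minus strand: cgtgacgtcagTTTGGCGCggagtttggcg
Uhrf1, chr17:56611117-56611146, plus strand: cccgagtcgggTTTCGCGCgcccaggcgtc
Hells, chr19:38919361-38919390, plus strand: gaccaccgggtTTTCCCGCgaaagagaagc
Cdca7, chr2:72306481-72306510, plus strand: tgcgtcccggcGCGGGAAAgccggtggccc
The octamer began 153 bases before the start in Mcm5, 47 in Mcm6, 138 in both Cdc6 and Pola1 and 8 in Dtl. In Mcm5 it overlapped a second octamer on the other strand, as did another octamer of Mcm6, and in Mcm7 a further octamer after the start overlapped a CCAAT by its last base.

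The second question was whether the genes differed between OTII cells primed in Il6-/- and in WT recipients. On Day 3 none of the 40 genes was called in the main edgeR fit of all 12 libraries, against 7.52% of all genes called higher. In that fit 5 (12.5%) had an unadjusted p under 0.05, against 26.8% of all genes. Of the 40 genes, 38 had a log2FC above 0, against 52.1% of all genes, with a median of 0.15 and a largest value of 0.51. In 25 of the 40 genes (62.5%) the 3 Il6-/- libraries lay above the 3 WT libraries, against 20.5% of all genes. The genes tend to move together within a library, with WT replicate 2 lowest of the Day 3 libraries for 24 of the 40. Counts of the 40 genes, here and on Day 5, are therefore not counts of independent observations. Without TMM scaling the summed levels were 11614, 10712 and 10845 CPM in WT and 11986, 11634.5 and 11877 CPM in Il6-/- libraries. The groups then nearly met. The widest difference was that of Hells, with 193, 161 and 159 CPM in WT and 260, 229 and 244 CPM in Il6-/- ones (log2FC 0.51, SE 0.17, FDR = 0.062). Tipin followed by FDR, with 230, 218 and 233 CPM in WT and 277, 289 and 301 CPM in Il6-/- ones (log2FC 0.35, SE 0.13, FDR = 0.084). The 2 groups did not overlap in either gene. The only values below 0 were those of E2f8 (−0.04) and Brip1 (−0.01), whose libraries overlapped.

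The count on Day 3 moved with the fit. When the 6 libraries of Day 3 were fitted alone, which also changed the scaling and left 12289 genes after the filter, 14 of the 40 genes were called higher and none lower, against 11.7% of the genes tested in that fit, while DESeq2 called 1 (Hells), against 9.13%, and limma-voom 2 (Hells and Tipin), against 8.29%. The 14 were Mcm5, Cdc6, Gins2, Prim1, Pold3, Pcna, Tyms, Nasp, Hells, Cdca7, Ung, Exo1, Tipin and Ccne2. The median SD of log2 CPM among replicates was 0.09 (WT) and 0.06 (Il6-/-) for the 40 genes on Day 3, below the 0.14 of all genes in both groups. On Day 5 it was 0.29 (WT) and 0.45 (Il6-/-) for the 40 genes, above the 0.19 and 0.20 of all genes. The main fit of all 12 libraries estimated the spread of each gene jointly over both days. Fitted by day, 14 of the 40 genes were called on Day 3 and none on Day 5. The part of the joint spread in these counts was not tested. Naive T-cell markers, which fall after activation, moved the other way on Day 3: they summed to 2529 to 2857 CPM in WT and 2037 to 2160 CPM in Il6-/- recipients, 5 of the 6 were called lower in Il6-/- recipients, and their part in the result was not tested. Of the other marker lists on Day 3, 1 CD8 T and NK gene and 1 lung epithelial gene were called higher in Il6-/- recipients. The lung epithelial sum was high in Il6-/- replicate 2 alone, at 11.3 CPM beside 0.475 and 1.52 CPM in replicates 1 and 3. Called lower were 1 B-cell, 1 germinal centre B-cell and 2 T-cell genes, and their part was not tested either.

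On Day 5, in the main fit of all 12 libraries, 5 of the 40 genes were higher in Il6-/- recipients (12.5%) and none was lower, against 1.27% of all genes called higher. They were Exo1, Pola1, Cdc6, Dtl and Gmnn. Exo1 had 1.43, 3.22 and 2.21 CPM in WT and 3.33, 11.7 and 6.40 CPM in Il6-/- ones (log2FC 1.64, SE 0.36, FDR = 0.018). Cdc6 had 5.85, 13.7 and 11.8 CPM in WT and 14.8, 30.5 and 22.2 CPM in Il6-/- ones (log2FC 1.11, SE 0.25, FDR = 0.021). In both genes the lowest Il6-/- library lay just above the highest WT library. Pola1 was at 11.2, 17.2 and 15.2 CPM in WT and at 19.6, 36.7 and 24.6 CPM in Il6-/- ones (log2FC 0.89, SE 0.19, FDR = 0.018), again without overlap. Dtl was at 9.32, 20.7 and 13.1 CPM in WT and at 18.6, 34.9 and 27.0 CPM in Il6-/- ones (log2FC 0.90, SE 0.23, FDR = 0.039). Gmnn was at 25.04, 31.6 and 33.0 CPM in WT and at 32.5, 52.0 and 43.3 CPM in Il6-/- ones (log2FC 0.51, SE 0.14, FDR = 0.048). The groups overlapped in Dtl and Gmnn, where Il6-/- replicate 1 fell inside the WT range.

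Of the 35 genes not called on Day 5, 34 had a log2FC above 0, so that 39 of the 40 lay above 0, against 51.7% of all genes, with a median of 0.56. Several had a larger difference than Gmnn but also a larger SE. E2f8 had a log2FC of 1.154 (SE 0.32, FDR = 0.057), Uhrf1 of 0.93 (SE 0.27, FDR = 0.063) and Rrm2 of 0.89 (SE 0.28, FDR = 0.083). In Uhrf1, for example, WT libraries had 33.1, 65.2 and 63.6 CPM and Il6-/- libraries 57.7, 153 and 99.1 CPM. The groups did not overlap in 5 genes (Cdc6, Pola1, Pcna, Exo1 and Wdr76; 12.5%), against 8.65% of all genes for groups lying higher in Il6-/- recipients, and none of the 40 had all Il6-/- libraries below WT, against 11.0% of all genes. By overlap, then, the share on Day 5 was near that of all genes.

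Usp1 was the exception on Day 5. It had 55.8, 70.1 and 37.4 CPM in WT and 29.8, 37.7 and 35.9 CPM in Il6-/- recipients, a log2FC of −0.66 (SE 0.19, FDR = 0.067). WT replicate 3 lay inside the Il6-/- range.

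The Day 5 calls rested on single libraries. Il6-/- replicate 2 had the highest level of the 6 Day 5 libraries for 36 of the 40 genes, and WT replicate 1 the lowest for 35. Without WT replicate 1 or without Il6-/- replicate 2, none of the 40 genes was called, against 0.316% and 0.393% of all genes called higher. Without Il6-/- replicate 1, the lowest of its group for 39 genes, 35 were higher, against 4.18%. Without Il6-/- replicate 3, 2 were called, against 0.609%, and without WT replicate 3, 9 were higher, against 2.02%, and Usp1 was lower. Without 5 of the 6 Day 3 libraries in turn, 3 were called, and the share of all genes in those fits is not given. The 6 Day 5 libraries alone gave no call, against 0.423%, DESeq2 called 17 higher, against 4.23%, and Usp1 lower, and 3 of the 5 genes were called with limma-voom, against 0.899%. Same-numbered libraries of Day 5 deviated together, and with the replicate number as a block within each day, 30 of the 40 genes were higher, against 5.43% of all genes, and 1 (Usp1) was lower, against 6.30%. In that fit Exo1 had an FDR of 0.00011, Cdc6 of 7.9e-05, Pola1 of 0.00017, Dtl of 9.9e-05, Gmnn of 0.0017 and Usp1 of 0.020. The mean summed level of the 40 genes was 1.43-fold higher in Il6-/- than in WT recipients on Day 5 and 1.21-fold without Il6-/- replicate 2. Naive T-cell markers summed to 3080 to 3406 CPM in WT and 2783 to 3208 CPM in Il6-/- recipients on Day 5, highest in WT replicate 1, and their part in the result was not tested.

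**Figure D4:**
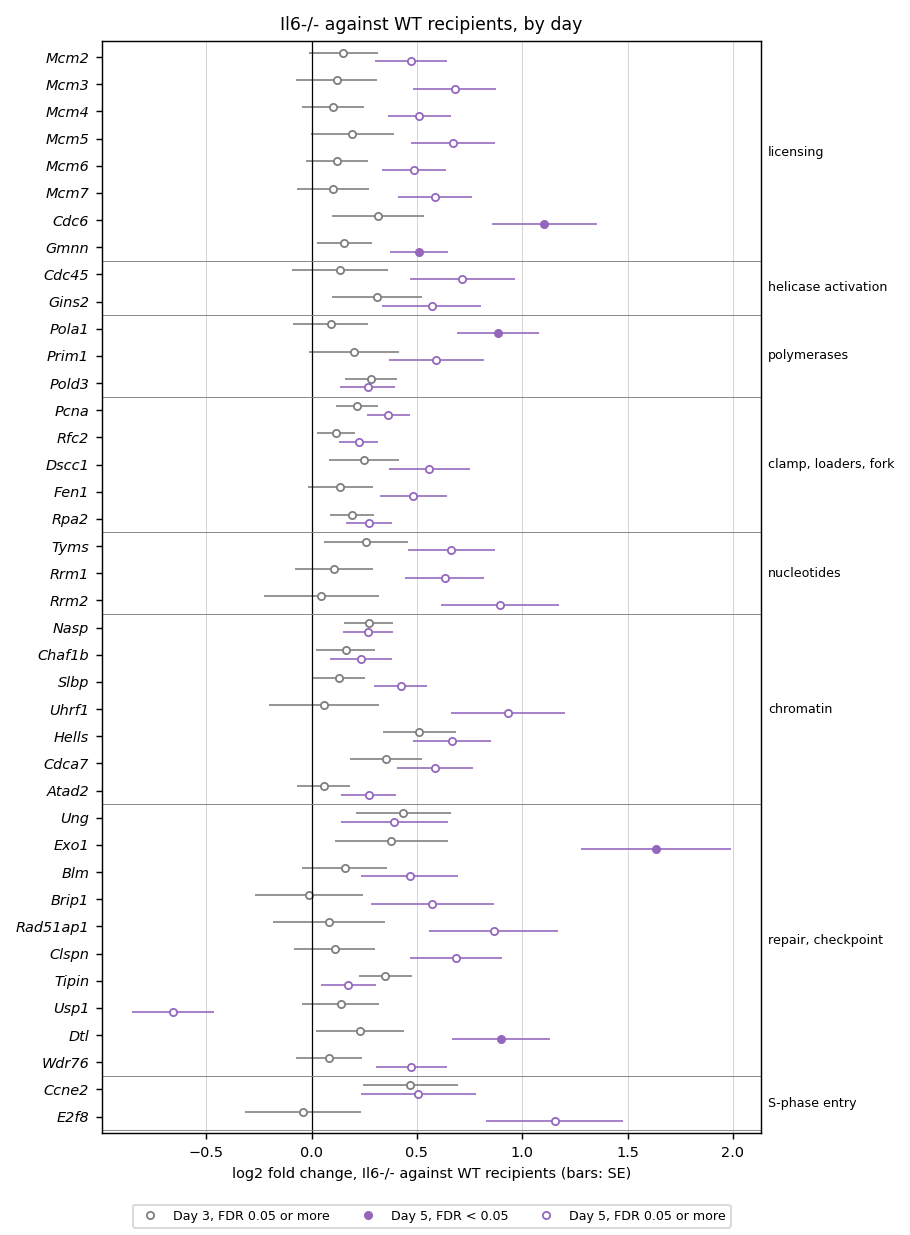
Difference between Il6-/- and WT recipients for each of the 40 genes as log2 fold change, on Day 3 (grey) and Day 5 (purple), with bars for the SE. Filled points passed an FDR of 0.05 in the main fit of all 12 libraries, and fits of each day alone gave other calls. On Day 3 no point is filled and values lie between −0.04 and 0.51, and on Day 5 the 5 filled points are Cdc6, Gmnn, Pola1, Exo1 and Dtl, with Usp1 alone below 0.

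The third question was whether the difference between genotypes changed from Day 3 to Day 5. None of the 40 genes was called in this interaction in the main edgeR fit without a block, against 4.92% of all genes. In that fit 8 had an unadjusted p under 0.05, a share of 20.0% beside 20.5% of all genes. DESeq2 called 2 (Pola1 and Usp1), against 9.82%. The median interaction was 0.36 on the log2 scale, and 35 of the 40 genes lay above 0, against 6852 of the 13570 genes tested. The smallest FDR was that of Pola1 (0.80, SE 0.26, FDR = 0.098), followed by Usp1 (−0.80, SE 0.27, FDR = 0.10), Exo1 (1.26, SE 0.45, FDR = 0.12) and E2f8 (1.20, SE 0.43, FDR = 0.12). With the replicate number as a block within each day, 18 genes had a positive interaction that was called and Usp1 a negative one, against 11.5% of all genes in either direction. The genotype comparisons and the day comparisons share libraries, so their values for a gene are not independent.

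The members were also set beside other cell cycle genes. The 30 G2/M genes were all called lower on Day 5 in each host, against 27.1% (WT) and 30.1% (Il6-/-) of all genes. Their median log2FC was −2.92 in WT and −2.22 in Il6-/- recipients, and none was called between genotypes without a block. With the replicate number as a block within each day, 28 of the 30 were higher in Il6-/- recipients on Day 5. In that fit 30 of the 40 G1/S genes were higher, against 5.43% of all genes. Mki67 had a log2FC of −2.91 in WT and −2.10 in Il6-/- recipients, Top2a −2.91 and −2.26, Cdk1 −2.96 and −2.39 and Ccnb1 −3.25 and −2.44. The ratio of the summed level of the 40 genes to that of the G2/M genes was 1.29 to 1.38 in WT and 1.52 to 1.57 in Il6-/- recipients on Day 3, without overlap. On Day 5 the ratios overlapped, at 2.20, 1.68 and 1.60 in WT and 1.91, 1.505 and 1.62 in Il6-/- recipients. The median Il6-/- to WT difference of the G2/M genes was −0.04 on Day 3 and 0.70 on Day 5, beside 0.15 and 0.56 for the 40 genes.

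Of 50 other replication genes, 49 were tested. On Day 5, 46 were called lower in each host, against 27.1% (WT) and 30.1% (Il6-/-) of all genes. Cdt1, the licensing partner of CDC6, had a log2FC of −2.46 in WT and −2.19 in Il6-/- recipients, and Tk1, thymidine kinase, −2.75 and −2.10. Pold4, the smallest polymerase delta subunit, and Samhd1, which degrades dNTPs, were higher on Day 5, with a log2FC of 1.12 and 1.33 in WT and 1.49 and 1.73 in Il6-/- recipients. Rrm2b, named after its values were seen, was the only other one called higher (0.47, Il6-/- recipients). Between genotypes, 6 of the 49 were higher in Il6-/- recipients on Day 5, against 1.27% of all genes, and 21 with the block within day, against 5.43%. Among the 6 was Ticrr, needed for helicase activation (log2FC 1.147, FDR = 0.0033).

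Of 18 genes of the E2F and RB families and the G1/S switch, 13 were called lower on Day 5 in each host. Of all genes, 27.1% (WT) and 30.1% (Il6-/-) were called lower. E2f1 had a log2FC of −0.46 (FDR = 0.034) in WT and −0.57 (FDR = 0.011) in Il6-/- recipients, while Ccne1, cyclin E1, had −2.51 and −3.27. Cdkn1b, the CDK inhibitor p27, was higher on Day 5, with a log2FC of 1.79 in WT and 1.74 in Il6-/- recipients, and Rbl2, an RB family member, was higher in Il6-/- (0.55) and lower in WT recipients (−0.22, FDR = 0.048). Between genotypes, E2f3 was higher (0.51) and E2f2 (−0.60) and Rbl2 (−0.67) were lower in Il6-/- recipients on Day 3, and E2f5 was lower on Day 5 (−1.35). With the block within day, 2 of the 18 were higher and 4 lower on Day 5, against 5.43% and 6.30% of all genes. E2f2, E2f3 and Rbl2 were named after their values were seen, and 35.4% of the exon length of Rbl2 and 43.4% of that of E2f5 is shared with another counted gene.

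Reads were counted without regard to strand, and 14 of the 40 genes had exon bases shared with another counted gene in GENCODE vM39, from 2.86% to 67.3% of their exon length. The share was 67.3% in Gins2 (with Gse1), 24.3% in Rfc2 (with Lat2), 20.8% in Pcna and 20.2% in E2f8, so these levels are less certain. Of the 5 genes higher in Il6-/- recipients on Day 5, only Exo1 had any, at 5.48%.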

How the data were processed

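RNA from sorted OTII cells was made into ultra-low input poly(A) libraries and read as single-end 50 bp reads. Trimming (Trim Galore 0.4.4), alignment to GRCm39 (STAR 2.5.2a) and unstranded counting (HTSeq 0.6.1p1) were done by the authors. Each library's deposited file holds raw, unscaled counts by gene symbol. A deposited log2 CPM table, scaled by TMM, covers 11258 genes and served here only for limma-trend. No column of per-sample values was left out.

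The 40 genes and the comparison lists were chosen with earlier results of these data known. All 40 may be named, and other genes by a rule: those of the lists called at an FDR under 0.05 and at least 2-fold, at most 5 per direction, plus Mki67, Top2a, Cdk1, Ccnb1, E2f1, Ccne1, Cdt1 and Tk1. Counts were analysed in R 4.3.3 with edgeR 4.0.16: filterByExpr on the 4 groups, TMM scaling, and a quasi-likelihood fit of all 12 libraries with 1 coefficient per group and no block. Alternatives used RLE, upper-quartile or no scaling, other filters, DESeq2 1.42.0, limma 3.58.1, replicate blocks, 6 libraries alone, a 2-fold limit and each library left out. Scripts were tested on simulated data.

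The labels give replicate numbers but no shared animal or day. Deviations from the group means over all genes tested correlated for same-numbered libraries of Day 5 (r = 0.243, 0.206 and 0.129, all above 0.1). A fit with the number as a block within each day was run beside the main fit, which has no block. Same-numbered libraries of Day 3 (r = 0.033, 0.060 and 0.032) and those across days (−0.071 to 0.071) stayed below 0.1. A differently numbered pair, WT Day 3 replicate 3 and WT Day 5 replicate 2, reached 0.110. The pairing was read from these same counts, and the calls given first are those without a block.

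Exon lengths came from GENCODE vM39, matched by symbol, as the union of all exons of a gene. Promoters came from the RefSeq table (GRCm38.p6). Intervals are exact binomial and cover counting error only.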

Additional observations from a re-analysis of the deposited data

How the results depend on the processing

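The fall from Day 3 to Day 5 was called for all 40 genes in both hosts under every alternative that gave the comparison. Its median log2FC in Il6-/- recipients moved from −2.13 to −1.91 with upper-quartile scaling and ranged from −2.35 to −1.91 when each library was left out in turn, and the 5.53-fold (WT) and 4.32-fold (Il6-/-) differences of the summed level ranged from 5.07 to 5.91 and from 3.79 to 5.09. Upper-quartile scaling put the median of all genes from Day 3 to Day 5 at 0.29 (WT) and 0.32 (Il6-/-), and no scaling at 0.14 and 0.24, against 0.09 in both.

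The calls between genotypes moved more, and the cause was not tested except where the setting itself names fewer libraries or genes. The share of all genes is not given for fits with no low-count filter, other scaling or a block across all groups. Nor is it given for the Day 3 block within day or for most fits without 1 library. Such counts alone do not show that the members moved more than other genes. On Day 3, where the count was 0, the members called higher were 5 with no low-count filter, 10 with the replicate block within day, 14 with the 6 libraries of the day alone, 2 with limma-voom, 1 with DESeq2 and 0 to 4 without 1 library in turn, 4 being without Il6-/- Day 5 replicate 1. On Day 5, where 5 were higher and 0 lower, the counts higher were 9 with upper-quartile scaling, 9 with no scaling, 30 with no low-count filter, 9 with the replicate block across all groups, 30 with the replicate block within day, 0 with the 6 libraries of the day alone, 17 with DESeq2, 3 with limma-voom and 2 at a limit of 2-fold. The count lower was 1, Usp1, with upper-quartile scaling, no low-count filter, the replicate block within day and DESeq2. Without 1 library in turn the counts ranged from 0 to 35 higher and from 0 to 1 lower, and the fold of the summed level from 1.21 to 1.62. In the interaction, where the count was 0 in both directions, it was 18 higher and 1 lower with no low-count filter, 18 and 1 with the replicate block within day, 1 and 1 with DESeq2, and 0 to 5 higher and 0 to 1 lower without 1 library in turn, 5 being without Il6-/- Day 5 replicate 1. The block changed no call from Day 3 to Day 5. Same-numbered libraries of Day 3, and those of different days, are not stated to share more than a number. Promoter shares of the members were 30% (octamer), 20% (TTTGAA) and 70% (CCAAT) in the 250 bases before the start alone. Those of the G2/M genes were 4.0%, 32.0% and 80.0%. A count of 0 allows up to 3 reads, or 0.115 to 0.186 CPM by library. The planned search for a protein motif was not run.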
